A study of Drosophila melanogaster with 3 samples.

Results

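Of 4187 peaks of the tagged Drosophila melanogaster protein CG12219 that passed the irreproducible discovery rate (IDR) step, 916 (21.9%, 95% interval 20.6 to 23.2) lay 51 to 500 bp upstream of a single promoter. Each peak was placed by its summit, the position that the authors give inside the called interval. Intervals of members were 98 to 520 bp long, and 547 of the 916 were 390 bp. Summits within 500 bp of protein-coding start sites of 2 different genes on opposite strands were set aside as bidirectional, and of the rest those 51 to 500 bp upstream of the nearest annotated start site, on the strand of its gene, were kept. The 916 upstream promoter peaks made up 50.5% (48.2 to 52.9) of the 1813 summits within 500 bp of a start site. The others were 206 core promoter peaks, within 50 bp of a start site, 246 downstream promoter peaks, 51 to 500 bp inside the gene, and 445 bidirectional promoter peaks. The remaining 2374 IDR peaks lay farther away.

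Chromatin immunoprecipitation and sequencing had been done on whole embryos of mixed sex, 0 to 18 h old, from a transgenic line that stably makes CG12219 with a C-terminal tag of green fluorescent protein (GFP). There was 1 group with 3 biological replicates and no second genotype or condition, so comparisons here are between classes of peaks. A line of free text in the labels calls the samples input controls, whereas the assay title, the antibody field and the peak lists describe immunoprecipitations, and they are treated as such. Whole embryos mix all cell types, so a peak bound strongly in few cells and one bound weakly in many cells cannot be told apart.

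The stretch just upstream of a start site holds the proximal promoter, where sequence-specific factors and chromatin remodellers act beside the core promoter that positions RNA polymerase II. In Drosophila, active promoters are usually kept clear of nucleosomes there, and the DNA is often rich in A and T. Known promoter elements of the fly include the TATA box, the initiator at the start site, GAGA repeats bound by GAGA factor and the DNA replication-related element (DRE) bound by Dref.

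Among the 20 members of highest signal, A+T content at the summit ran between 57.4% in MFS10 and 77.2% in CG18549, Gapdh2, CG1635 and mRpL41. The windows from 50 bp before to 50 bp after the summit are printed below in the dm6 build, from the RefSeq genome, on the strand of the gene, for 6 of the 9 members of highest signal. The other 3 of these, px, CG1888 and Tina-1, had 70.3%, 63.4% and 75.2% A+T, and their sequence is not shown. Capitals mark letters inside any of 10 hexamers (and their reverse complements) of A and T only that recurred at summits, described further below. The windows are chr3L:19590567-19590667 (minus strand) for CG14100, chrX:2137292-2137392 (minus) for ph-p, chr3R:12449111-12449211 (plus) for CG18549, chrX:15867929-15868029 (plus) for Gapdh2, chr3R:31588474-31588574 (plus) for CG1635 and chr2L:10474474-10474574 (minus) for RluA-1.
CG14100: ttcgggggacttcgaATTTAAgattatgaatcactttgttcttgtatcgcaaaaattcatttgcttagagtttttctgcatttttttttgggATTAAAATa
ph-p: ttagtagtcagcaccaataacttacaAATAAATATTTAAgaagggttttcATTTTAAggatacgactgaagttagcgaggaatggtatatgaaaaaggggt
CG18549: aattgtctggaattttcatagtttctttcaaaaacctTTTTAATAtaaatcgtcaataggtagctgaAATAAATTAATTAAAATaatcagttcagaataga
Gapdh2: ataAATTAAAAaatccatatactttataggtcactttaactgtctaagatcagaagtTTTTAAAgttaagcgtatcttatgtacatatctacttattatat
CG1635: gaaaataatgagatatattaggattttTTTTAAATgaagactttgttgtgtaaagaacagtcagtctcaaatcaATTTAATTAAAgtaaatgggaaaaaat
RluA-1: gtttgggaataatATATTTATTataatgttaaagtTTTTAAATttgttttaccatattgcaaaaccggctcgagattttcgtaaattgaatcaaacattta
The A+T content of the windows shown ran between 67.3% in ph-p and 77.2% in CG18549, Gapdh2 and CG1635. The longest unbroken run of A and T was 21 bp in CG18549 and 10 bp in CG14100.

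Base composition varied widely among the members, even at high signal. For this contrast, members on a chromosome arm whose sequence is not shown here were left out, and their values may be more extreme. Among the other members in the first 500 IDR peaks, the 2 with the lowest and the 2 with the highest A+T content are shown. They were Obp99b (chr3R:29717100-29717200, minus strand), which encodes an odorant-binding protein, and RpL23A (chr3L:1668664-1668764, minus), a protein of the large ribosomal subunit, at the low end, and Glyp (chr2L:2130577-2130677, plus), glycogen phosphorylase, and Kal1 (chr3R:24141178-24141278, plus) at the high end. These genes were chosen after their values were seen.
Obp99b: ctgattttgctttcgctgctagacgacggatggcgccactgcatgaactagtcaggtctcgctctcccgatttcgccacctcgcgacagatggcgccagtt
RpL23A: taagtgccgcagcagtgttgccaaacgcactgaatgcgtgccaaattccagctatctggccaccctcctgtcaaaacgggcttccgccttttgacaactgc
Glyp: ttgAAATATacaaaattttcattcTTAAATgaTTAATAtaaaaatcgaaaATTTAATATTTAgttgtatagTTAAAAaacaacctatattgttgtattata
Kal1: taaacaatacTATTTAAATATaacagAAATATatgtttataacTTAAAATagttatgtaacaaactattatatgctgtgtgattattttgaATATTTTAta
Obp99b had 42.6% A+T at rank 404 and RpL23A 45.5% at rank 498, and neither window held any of the 10 hexamers. Glyp had 85.1% at rank 317 and Kal1 84.2% at rank 308, with 36 and 32 letters inside them.

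A small number of members carried the DRE, spelled TATCGATA. A pair of them, chosen after their values were seen, show it within 50 bp of the summit, here with the DRE in capitals. They are p53 (chr3R:23054088-23054188, minus strand), the fly p53 tumour suppressor homologue, with its summit 56 bp upstream of the start site, and flfl (chr3R:13683807-13683907, plus), a regulatory subunit of protein phosphatase 4, with its summit 64 bp upstream.
p53: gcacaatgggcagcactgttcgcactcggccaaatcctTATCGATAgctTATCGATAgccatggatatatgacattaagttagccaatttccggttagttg
flfl: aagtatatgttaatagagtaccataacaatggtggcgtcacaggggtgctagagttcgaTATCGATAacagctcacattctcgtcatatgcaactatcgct

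Summits were not spread evenly over the 450 bp that the rule covers. In the IDR list, the median summit lay 198 bp upstream (quartiles 134 and 307 bp). The densest stretch of that list was 151 to 200 bp, with 186 summits (20.3%), and the replicates differed in this, as given below. There were 123 summits at 51 to 100 bp, 156 between there and 150 bp, 107 at 201 to 250 bp and 108 at 251 to 300 bp. Per 50 bp, 71.5 summits lay at 301 to 400 bp and 46.5 at 401 to 500 bp. Signal also varied with distance: the median rank by signal, where 1 is the highest, was 1003 at 201 to 250 bp, against 2347 at 51 to 100 bp. Members just inside the bounds were yuri and SP1173, at 51 bp, and CG9119 and CG10479, at 500 and 499 bp. Just outside were lncRNA:CR44618 and mew, at 50 and 49 bp, and Fim and wkd, at 502 and 505 bp.

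The same rule applied to the 4187 calls of highest signal in each replicate gave 835 upstream promoter peaks in replicate 1, 928 in replicate 2 and 875 in replicate 3, or 879 ± 46.7 (SD, n = 3). Core promoter peaks numbered 325, 158 and 220 in replicates 1, 2 and 3, or 234 ± 84.4. The count of core promoter peaks thus varied more between replicates than that of upstream promoter peaks, and replicate 1 had the fewest upstream and the most core promoter peaks. The median distance upstream was 187, 207 and 194 bp in replicates 1, 2 and 3. The densest stretch was not the same in each replicate. Counted per 25 bp within the range of the rule, it was at positions -75 to -50 in replicate 1 (89 summits). In replicate 2 it was at -175 to -150 (110 summits), and in replicate 3 at -100 to -75 (90 summits).

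**Figure D1:**
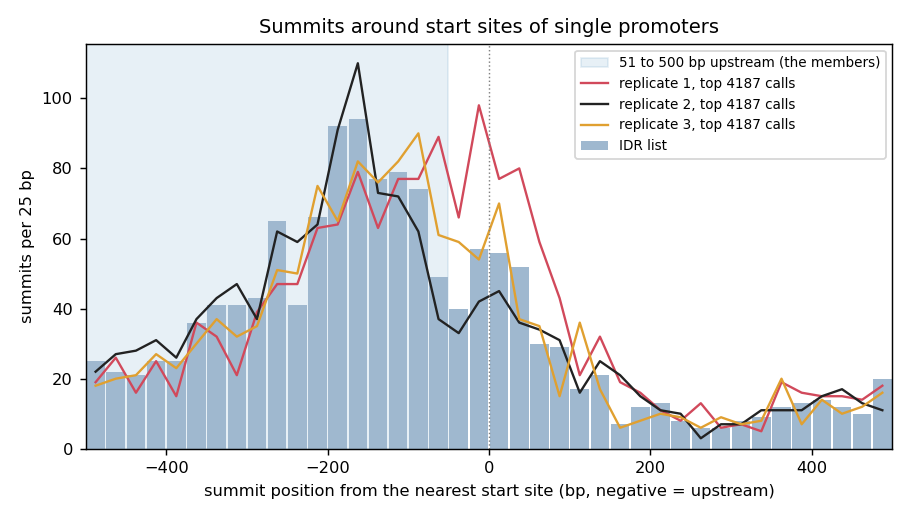
Number of summits per 25 bp (vertical axis) by position from the nearest start site in bp (horizontal axis), bidirectional promoters left out, for the IDR list (bars) and the 4187 calls of highest signal in each replicate (lines); the shaded range is the one that defines the upstream promoter peaks. All 3 replicates have a broad mass of summits upstream, and replicate 1 has 325 summits within 50 bp of the start site, against 158 in replicate 2.

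The 20 members of highest signal were found near the top of every replicate list. CG14100 had IDR rank 3 and took ranks 3, 5 and 2 in replicates 1, 2 and 3, with the authors' signal values of 922, 1838 and 1363. Next came px, a gene named for its role in wing vein patterning, at ranks 7, 4 and 8, then CG1888 at ranks 4, 11 and 5. The summit at ph-p, which encodes a Polycomb group protein, lay 487 bp upstream and ranked 6, 12 and 4. These summits stayed among the first 12 calls of each replicate.
The others of the 20 were CG18549, Tina-1, Gapdh2, CG1635, RluA-1, gish, Atf3, mRpL41, lncRNA:CR31044, Ptpmeg2, CG31145, CG7841, MFS10, larp, Rtnl1 and Sesn. They include gish, a casein kinase I, Atf3, a leucine zipper transcription factor, larp, an RNA-binding protein, Rtnl1, a reticulon of the endoplasmic reticulum, and Sesn, a sestrin that restrains growth signalling. The lowest rank that any of the 20 took in any replicate was 73 (Rtnl1 in replicate 2).

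**Figure D2:**
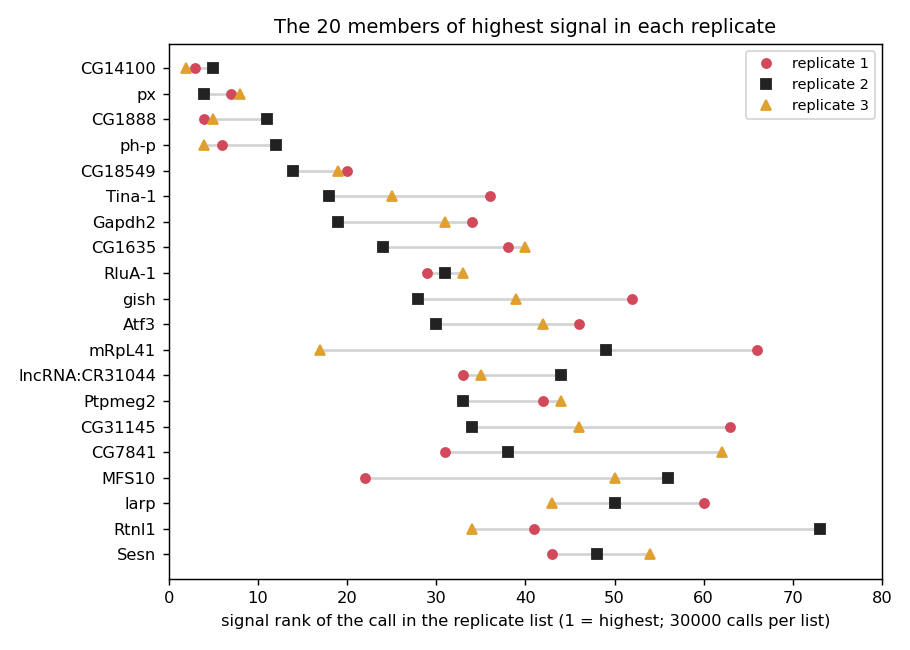
Signal rank in each replicate list of 30000 calls (horizontal axis, 1 is the highest signal) for the 20 members of highest signal in the IDR list (rows), with 1 symbol per replicate and a grey line over their range. Every point lies at rank 73 or better, and the first 4 genes stay at rank 12 or better.

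Over all members, ranks followed one another across replicates, with Spearman's rho of 0.702 between replicates 1 and 2 (904 members), 0.790 between 1 and 3 (892) and 0.764 between 2 and 3 (900), as a description across peaks that all passed the same step. A call within 250 bp was present in all 3 replicate lists for 890 members (97.2%). It was among the 4187 highest calls of all 3 for 581 members (63.4%, 60.2 to 66.6), against 60% of all IDR peaks and 116 of 206 core promoter peaks (56.3%, 49.2 to 63.2). This difference of 7.12 points did not pass the test (Fisher's exact test, two-sided, adjusted p = 0.101 over 3 comparisons), nor did those of 6.52 points from downstream and 2.98 points from bidirectional promoter peaks (adjusted p = 0.101 and 0.310). By replicate, the share of members among the highest calls was 78.1%, 89.1% and 83.7% in replicates 1, 2 and 3. For core promoter peaks it was 89.3%, 72.8% and 79.1%, so in replicate 1 the difference had the opposite direction.
The best-ranked call within that distance had its summit a median of 23.5, 10 and 19 bp from the IDR summit, and still lay 51 to 500 bp upstream in 92.8%, 96.9% and 94.0% of cases. In all, 38 members shared a replicate call with another member close by, as at spi, so their ranks in that replicate are not separate values.
The 4 members farthest apart in rank between replicates were CG10365, Jheh3, Irp-1A and Adk2. CG10365 took ranks 26147, 823 and 2714 in replicates 1, 2 and 3. Jheh3, a juvenile hormone epoxide hydrolase, took ranks 27574, 2621 and 4593. In all 4 the low rank was that of replicate 1. Of all members, 38 ranked beyond 10000 in replicate 1, 1 in replicate 2 and 9 in replicate 3.

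Upstream promoter peaks ranked higher by signal than core promoter peaks in the IDR list, but not in every replicate. Their median rank was 1788.5, against 2570 for core promoter peaks, a difference of -781.5 ranks (permutation test, 100000 resamples, two-sided, adjusted p = 3e-05 over 3 comparisons). Against downstream promoter peaks, with a median rank of 2405.5, the difference was -617 (permutation test, adjusted p = 6e-05), and against bidirectional promoter peaks, with a median of 1951, it was -162.5 and did not pass (adjusted p = 0.260). Peaks are not replicates of an experiment, so these p-values describe the spread among peaks of 1 list.
In the ranks of replicate 1 the medians were 1983.5 for upstream and 1691.5 for core promoter peaks, a difference of 292 in the opposite direction (permutation test, adjusted p = 0.309). In replicate 2 they were 1648 and 2997.5, a difference of -1349.5, and in replicate 3 they were 1878.5 and 2302, a difference of -423.5. By the mean rank of replicates 1 and 3 over the IDR peaks, the difference was -159 and did not pass (permutation test, adjusted p = 0.522). With the list itself chosen anew from the pooled calls by the ranks of replicates 1 and 3, it was -503.5 and passed (permutation test, adjusted p = 0.00135). The pooled calls and their summits still come from reads that include replicate 2.
Of the members called in both, 63.5% ranked better in replicate 2 than in replicate 1, against 22.1% of core promoter peaks. Upstream and core promoter peaks also differed in A+T content, as described below, and whether this goes with the difference between replicates was not tested. Among peaks of 55 to 65% A+T (250 upstream and 58 core promoter peaks), a bound set after seeing the data, the difference was -427.5 and did not pass (permutation test, adjusted p = 0.272), with differences of 154.5, -618 and 223 in replicates 1, 2 and 3. The part of base composition in the ranks was not tested further.
Members held 41 of the first 100 IDR peaks and 179 of the first 500, and 259 of them (28.3%) lay at ranks 1 to 837, with 155 at ranks 3351 to 4187 and the rest between.

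**Figure D3:**
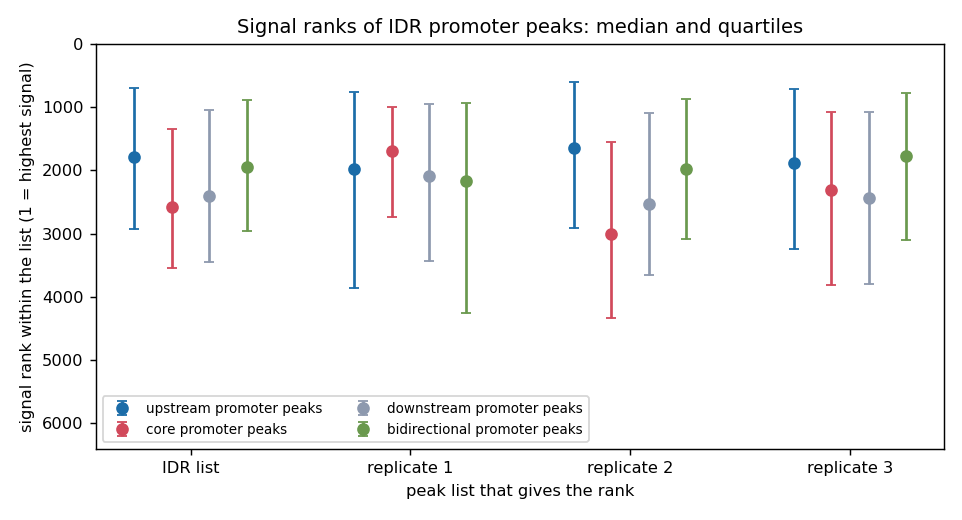
Median signal rank (points; vertical axis, 1 at the top is the highest signal) with quartiles (bars) of the IDR promoter peaks of 4 classes, ranked in the IDR list and in each replicate list; a peak with no call in a replicate was given rank 30001. Upstream promoter peaks have the higher-ranked median against core promoter peaks in the IDR list and in replicates 2 and 3, and the lower-ranked one in replicate 1 (1983.5 against 1691.5).

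The DNA under upstream promoter summits was richer in A and T than the DNA around it. The window reaching 50 bp to each side of the summit averaged 65.4% ± 9.90 A+T (SD, n = 916 peaks), against 57.1% ± 7.47 for the mean of the windows 500 bp to either side, a difference of 8.30 points (paired permutation test, two-sided, p = 1e-05, the smallest that 100000 resamples can give). The side away from the gene averaged 59.6%, and the side towards the gene averaged 54.6%. The summit was above the mean of its flanks in 696 of 916 members. A+T content reached 60% in 700 members and was under 50% in 88, with a range of 30.7% to 86.1%.
Core promoter summits averaged 54.1% ± 7.88 (n = 206), so upstream promoter summits were 11.3 points higher (permutation test, two-sided, p = 1e-05, again the smallest possible). Downstream promoter summits averaged 60.5%, bidirectional ones 66.7% and summits away from start sites 65.8%. These 3 differences were not tested.
Base composition changes with distance from a start site, and the position at the members' median offset, 198 bp upstream, of 10589 protein-coding promoters with no IDR peak within 1000 bp averaged 61.9% ± 10.9. Windows 500 bp to either side of that position averaged 58.9% away from the gene and 53.9% towards it, so promoters with no peak also had a higher centre. The centre was 8.30 points above its flanks at upstream promoter summits and 5.52 points above them at promoters with no peak. The difference between these values was 2.79 points (permutation test, two-sided, p = 1e-05, the smallest possible), a comparison chosen after seeing the data. By distance, members averaged 58.3% at 51 to 100 bp, against 58.7% at promoters with no peak. They averaged 68.0% at 201 to 250 bp, against 62.0%, and 67.7% at 301 to 400 bp, against 61.6%. Beyond 100 bp the members' mean was 4.34 to 6.15 points higher in each distance range.
A+T content also differed along the list, with a mean of 69.1% ± 8.13 among the 259 members at ranks 1 to 837 and 61.8% ± 10.8 among the 155 members at ranks 3351 to 4187. Unbroken A/T runs of at least 12 bp were present at 299 members (32.6%), 21 core promoter summits (10.2%) and 27.2% of promoters with no peak. Bidirectional promoter summits had them more often than members, at 40.9%, and summits away from start sites at 27.5%.

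**Figure D4:**
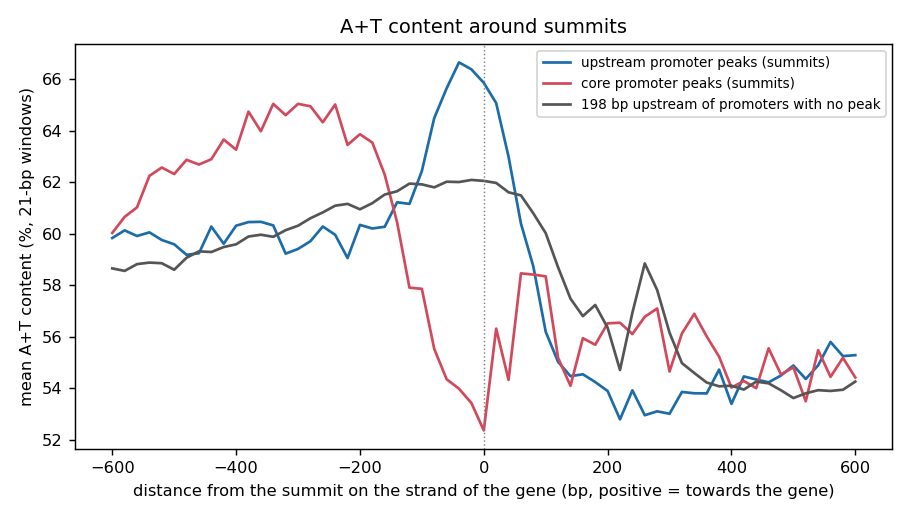
Mean A+T content in 21-bp windows (vertical axis, percent) by distance in bp from the summit on the strand of the gene (horizontal axis), for upstream promoter peaks, core promoter peaks and, centred 198 bp upstream of the start site, promoters with no peak. Upstream promoter peaks are at 65.9% in the central window and highest 40 bp before it on the strand of the gene (position -40), at 66.7%, whereas core promoter peaks are lowest in the central window, at 52.4%.

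Short words of A and T recurred at upstream promoter summits. The words were ranked on 458 members and tested on the other 458, counting members with the word on either strand within 50 bp of the summit against a window 500 bp away. All 10 of the top hexamers passed (100% of those tested; exact McNemar test, two-sided, largest adjusted p = 0.00352), and all 10 consist of A and T only. AAATAT was present at 33.8% of summits, against 17.03% of flanks (exact McNemar test, adjusted p = 5.95e-09), and ATTTAA at 29.7%, against 14.6% (adjusted p = 3.23e-07). At core promoter summits these 2 hexamers were present in 14.1% and 9.71%, and at promoters with no peak in 24.1% and 20.9%. The flank window was drawn at random from either side. The mean of both flanks was 57.1% A+T, against 65.4% at summits, and the part of this difference in the word counts was not tested. Any of the 10 was present at 78.4% of the 458 upstream promoter summits not used to rank the words, 42.2% of core promoter summits and 66.9% of promoters with no peak. Of the top 10 octamers, 0 passed by the same exact McNemar test (0% of those tested), 3 had an unadjusted p under 0.05, and the lowest adjusted p was 0.0522, for AAAATGTT, at 5.02% of summits and 1.53% of flanks. With the 2 sets of members exchanged, 13 of the 20 words passed, against 10 here.

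Of 28 motifs listed by their letters and searched on both strands within 100 bp of the summit, 11 (39.3%) differed between summits and flanks (exact McNemar test, adjusted p under 0.05), 10 of them more frequent at summits. TATAAA, the letters of the TATA box, was present at 35.3% of summits and 24.1% of flanks (exact McNemar test, adjusted p = 8.75e-06), against 30.2% at the members' median offset of promoters with no peak. This was the 1 motif that differed from the flank under all 7 settings tried. TGTTTA, core letters of forkhead sites, was present at 26.4% of summits and 18.4% of flanks, and TCAGT, core letters of the initiator, at 36.5% and 29.1%.

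Among the other motifs, GAGAG, the repeat bound by GAGA factor, was present at 33.1% and 26.3%, and CANCNCTA, core promoter motif 7, at 8.62% and 4.80%. The DRE was present at 18 summits (1.97%) and 5 flanks (0.55%). AGGNGGC, core letters of the CTCF site, was less frequent at summits, at 5.02% against 8.95%. The other 4, all more frequent at summits, were the core letters listed for Caudal, GATA factors and ZIPIC and a run of 6 A. Letters of this length occur throughout the genome, so a match is not a binding site.
The flank drawn at random from either side often fell inside the gene. Against the flank away from the gene alone, 4 of 28 motifs differed, namely TATA, initiator, GAGA and the A run, all more frequent at summits. The forkhead, Caudal, GATA, DRE, motif 7, ZIPIC and CTCF letters then did not pass, with CTCF letters 1.20 points less frequent at summits (exact McNemar test, adjusted p = 0.511). At promoters with no peak the A run was present at 38.6%, against 39.4% at summits, and it differed from the flank under 3 of 7 settings. The initiator and GAGA letters were at 28.7% and 24.2% of promoters with no peak, and the forkhead, Caudal and GATA letters at 23.1%, 22.5% and 13.9%. Summits were not tested against these. Within 50 bp of the summit, with the flank drawn from either side, only the TATA and forkhead letters differed. The initiator and GAGA letters were then 1.42 and 2.07 points more frequent at summits (exact McNemar test, adjusted p = 0.680 and 0.503). For the 123 members at 51 to 100 bp, the window of 100 bp to each side takes in the start site itself. The window centred 198 bp upstream at promoters with no peak does not.

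Compared with core promoter peaks, upstream promoter peaks had the Caudal, TATA and homeodomain letters more often and those of BEAF-32, DRE, motif 1, motif 7 and CREB less often. These were 8 of 28 motifs (28.6%) that differed (Fisher's exact test, adjusted p under 0.05), and the initiator, motif 6, forkhead and A-run letters were among those that did not pass (Fisher's exact test, adjusted p = 0.592, 0.929, 0.239 and 0.568). TTTATG, the Caudal letters, was present at 24.8% of upstream and 12.1% of core promoter peaks (Fisher's exact test, adjusted p = 6.19e-04), TATAAA at 35.3% and 24.3%, and TAATTA, the homeodomain letters, at 15.2% and 6.80%. Motif 7 was present at 8.62% of upstream and 19.4% of core promoter peaks (Fisher's exact test, adjusted p = 6.19e-04), and CGATA, the letters bound by BEAF-32, at 26.6% and 39.8% (adjusted p = 0.00232). The DRE was present at 1.97% and 6.31%, GGTCACAC, core promoter motif 1, at 1.20% and 5.34%, and TGACGT, a partial site of CREB proteins, at 3.06% and 7.28%. CGATA lies inside TATCGATA, so these 2 counts overlap. BEAF, DRE and motif 7 letters differed under all 6 settings tried. The difference of 11.3 points in A+T content stands beside all of these counts, and its part in them was not tested.

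Under the summit, upstream promoter peaks lay more often in an intron of their own gene, and less often in other genes, than the point 198 bp upstream of start sites with no peak. A summit was in an intron of the same gene, upstream of an internal start site, for 299 members (32.6%, 29.6 to 35.8), against 15.4% of 13352 start sites with no IDR peak within 1000 bp, read 198 bp upstream (Fisher's exact test, two-sided, adjusted p = 9.17e-35 over 5 classes). The members' share varied with distance, from 16.3% at 51 to 100 bp to 29.6% at 151 to 200 bp, 40.2% at 201 to 250 bp and 44.1% at 401 to 500 bp. Start sites with no peak were read at the 1 distance only. An exon of another gene lay under 41 members (4.48%), against 15.4% (Fisher's exact test, adjusted p = 4.78e-24), and an intron of another gene under 83 (9.06%), against 13.7% (adjusted p = 7.60e-05). Intergenic sequence, under 456 members (49.8%), against 52.4%, and exons of the same gene, under 37 (4.04%), against 3.18%, did not pass (Fisher's exact test, adjusted p = 0.148 for both). Thus 3 of 5 classes (60%) differed.
Gene structure differed too. The nearest start site was the most upstream one of its gene for 62.9% of members, against 81.0% of start sites with no peak. The genes had a median length of 6648 bp, against 2009 bp. For core and downstream promoter peaks the shares were 69.4% and 61.8%, and the median lengths 4674.5 and 4747.5 bp. A lower share and longer genes than at start sites with no peak were thus not particular to the members. Among start sites inside their gene, 87.9% of 340 members lay in an intron of that gene, against 81.2% of 2534 start sites with no peak (Fisher's exact test, adjusted p = 0.0100). With this restriction, exons of the same gene lay under 10.9% of members, against 16.7% (difference -5.85 points, Fisher's exact test, adjusted p = 0.0143). This was the opposite direction to that over all start sites. It is not separate from the intron result, since these 2 classes hold nearly all such positions. Exons of another gene lay under 1.18%, against 2.05%, and no longer passed (Fisher's exact test, adjusted p = 0.668). With those restricted to protein-coding genes of 5000 to 20000 bp, the shares were 89.9% of 148 and 85.9% of 1025, and the difference of 4.01 points did not pass (Fisher's exact test, adjusted p = 0.505). Both restrictions were chosen after seeing the data.

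**Figure D5:**
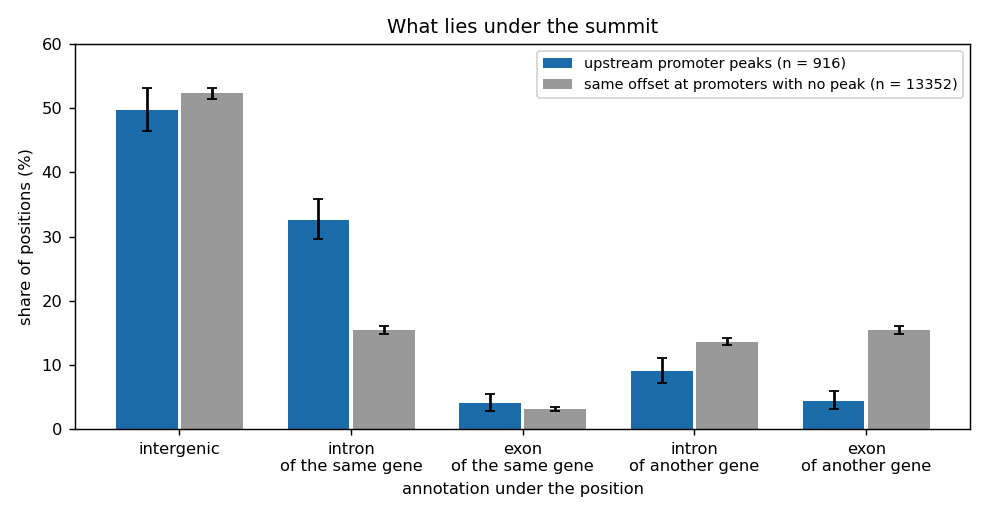
Share of positions (vertical axis, percent) in each class of annotation (horizontal axis) under the summits of the 916 upstream promoter peaks and 198 bp upstream of 13352 start sites with no peak (labelled as the same offset); error bars are exact binomial 95% intervals. Introns of the same gene hold 32.6% of members, against 15.4%, and exons of other genes 4.48%, against 15.4%.

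The 916 members lay at 849 genes, 819 members at protein-coding genes, 88 at non-coding RNA genes, 7 at tRNA genes, 1 at a snoRNA gene and 1 at a pseudogene. Of the genes, 790 had 1 member, 53 had 2 and 6 had at least 3. These 6, named for their number of members after their values were seen, were Ptpmeg2, Rtnl1, dnc, spi, Moe and Svil. Ptpmeg2, a protein tyrosine phosphatase, had summits 186, 193 and 167 bp upstream of 3 different start sites. Its first summit took ranks 42, 33 and 44 in replicates 1, 2 and 3, the second 133, 201 and 137, and the third 332, 313 and 166. The order of the 3 start sites by signal was the same in each replicate. The gene dnc, which encodes a cyclic AMP phosphodiesterase, had summits 278, 273, 317 and 373 bp upstream of 4 start sites, at IDR ranks 140, 765, 1232 and 3412. Another IDR summit of any class lay within 1000 bp of 145 members (15.8%).

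Genes with an upstream promoter peak made up 5.4% of all 13968 protein-coding genes (754 genes), and this share is the background for each gene list. On the chromosome arms other than the fourth and Y, it ran between 4.87% on 2R and 5.97% on X. Glycolysis had 5 of 13 genes with a member, and these were also all of its genes nearest to any promoter peak. Gapdh2, glyceraldehyde-3-phosphate dehydrogenase, ranked 34, 19 and 31 in replicates 1, 2 and 3, with its summit 166 bp upstream. Hex-A, a hexokinase, ranked 198, 51 and 243 at 193 bp, and Eno, enolase, ranked 387, 154 and 365 at 177 bp. Ldh, lactate dehydrogenase, ranked 513, 235 and 717 at 174 bp. Pgk, phosphoglycerate kinase, named in addition after its values were seen, had summits 296 and 181 bp upstream at IDR ranks 1157 and 1631. The summits of Gapdh2, Hex-A, Eno and Ldh had 72.3% to 79.2% A+T, against 62.4% and 57.4% at the 2 summits of Pgk. Replicate 2 gave each of the first 4 genes its best rank. It also gave the Pgk summit of 62.4% A+T its best rank (1186, 1092 and 1422 in replicates 1, 2 and 3). The glycolysis count was 5 without each replicate in turn.

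Cytosolic ribosomal protein genes often had promoter peaks of other kinds, while their share with a member, 4.55%, was near the 5.4% of all protein-coding genes. Of 88 cytosolic ribosomal protein genes, 66 (75%) were nearest to a promoter peak of any class, against 10.7% of all protein-coding genes, but 4 had an upstream promoter peak. These were RpL23A (60 bp upstream, ranks 452, 931 and 212 in replicates 1, 2 and 3), RpS5a (69 bp), RpL35 (89 bp) and RpLP2 (276 bp). Without replicate 2 the count was 2. Of 73 mitochondrial ribosomal protein genes, 1 had a member, mRpL41, at ranks 66, 49 and 17. Counts were 0 of 87 for oxidative phosphorylation, 0 of 48 for the proteasome, 0 of 38 for splicing, 0 of 24 for the nuclear pore and 1 of 65 for the general transcription machinery (Taf4).

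Developmental and signalling lists had counts of 0 to 7. Muscle and mesoderm had 7 of 40, among them sls, a titin-like protein of the sarcomere (ranks 299, 298 and 237), tin, the homeodomain factor of heart formation (618, 669 and 865), stumps, an adaptor of fibroblast growth factor (FGF) receptors, and htl, an FGF receptor whose ranks were 12953, 2193 and 4194. Signalling by EGF and FGF receptors had 6 of 32, among them spi, an EGF receptor ligand, aos, an inhibitor of that receptor, and bnl, an FGF ligand. Neural fate had 4 of 34, with elav, a neuronal RNA-binding protein, at ranks 144, 67 and 122, and numb, a cell fate determinant, at ranks 235, 272 and 296.
Notch had 3 of 23, with the corepressor gro at ranks 159, 241 and 175, E(spl)m7-HLH, a target of Notch, and neur, a ubiquitin ligase that acts on Notch ligands. Wingless had 3 of 28, with sgg, the kinase GSK3, at ranks 73, 102 and 105. Toll and Dorsal had 3 of 17, with cact, the inhibitor of Dorsal, Myd88, an adaptor, and pip. Polycomb and trithorax had 4 of 33, with ph-p, ph-d, Trl, which encodes GAGA factor, and kis. Heat shock and chaperones had 4 of 41, with Hsp83 at ranks 82, 239 and 82, Hsp27 at 269, 233 and 220, Hsp26 and Cnx99A. Hox genes had 0 of 11, and 1 without replicate 2. Segmentation had 2 of 27, nkd and bcd, 1 without replicate 1 and 3 without replicate 2. Most other counts here moved too. With any replicate left out, muscle and mesoderm had 6, Notch 4, Toll and Dorsal 4, Polycomb and trithorax 3, and heat shock and chaperones 5. Signalling by EGF and FGF receptors had 5 without replicate 1 and 4 without replicate 2. Neural fate had 3 without replicate 3, and Wingless stayed at 3.

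Several large gene families had almost no members. There was 1 of 230 among chemoreceptors and odorant-binding proteins (Obp99b; 2 without replicate 1), 1 of 122 cuticle protein genes (Cpr65Av) and 1 of 85 cytochrome P450 genes (Cyp317a1). Replication-dependent histone genes, which lie in a repeated cluster where single reads are hard to place, had 0 of 111 (up to 3.27% by the upper bound of the 95% interval). These families were also rarely nearest to a promoter peak of any class, against 10.7% of all protein-coding genes. Their shares were 0.43% (chemoreceptors and odorant-binding proteins), 0.82% (cuticle proteins), 1.18% (cytochrome P450) and 0% (histones). Cell cycle and replication had 5 of 48, with Dp, CycE, fzr and CycB3 among them, 4 without replicate 2 and 3 without replicate 3. The remaining lists were translation factors (4 of 54), vesicle traffic (4 of 108, with Syx4 and Rab5), Hippo signalling (2 of 17, app and ex), insulator proteins (2 of 27), Hedgehog (2 of 16), Dpp (1 of 21), ecdysone (1 of 19), autophagy (1 of 20) and aminoacyl-tRNA synthetases (1 of 33). Leaving out a replicate moved 7 of these counts. Insulator proteins had 3 without replicate 1 and 1 without replicate 3, and Hedgehog had 1 and ecdysone 2 without replicate 1. Vesicle traffic had 3 without replicate 2, Hippo had 3 without replicate 2 or 3, and whichever replicate was left out, Dpp had 2 and the synthetases 0. The lists are described by their counts only, with no test, since they were written with earlier results of these data known.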

How the data were processed

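The deposited files are peak lists, 1 for each of 3 immunoprecipitated replicates, 1 for the pooled reads and 1 of peaks that passed the IDR step (dm6 coordinates, per the labels). The authors deposited a signal for each call and state no normalization, so it gave only ranks within its own list. Ties were broken by the −log10 q value that the authors deposited. The replicate and pooled lists hold 30000 calls each, background calls included. How reads were aligned and peaks called, and which IDR threshold applied, is not given in the sources used here, and the depth per library is unknown.

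Annotation was Ensembl release 115 (BDGP6.54) without transposable elements, on 7 chromosomes, and sequence was the RefSeq genome of dm6. A replicate call within 250 bp of an IDR summit, the best-ranked where there were several, was taken as its counterpart. Ranks and A+T content were compared by permutation tests with 100000 resamples, shares by Fisher's exact test and summits with flanks by the exact McNemar test (scipy 1.17.1), all two-sided, with Benjamini-Hochberg adjustment and a threshold of 0.05. Intervals are Clopper-Pearson 95% and cover counting error only. The scripts were tested on simulated data. Named genes were the 20 members of highest signal, up to 4 of highest signal per gene list, those at the bounds of the rule and the 4 most discordant between replicates, with the exceptions stated. Of the symbols in the 33 gene lists, 16 were matched through older names and 11 were not matched. The result of 1 list is not reported here. The members, motifs and lists were chosen with earlier results of these data known. Alternatives were lists without 1 replicate, ranks of single replicates, other start sites, bounds, windows and flanks, and the 2093 peaks of highest signal. A list without 1 replicate held the 4187 pooled calls with the best mean rank in the other replicates. Pooled calls and their summits come from the reads of all replicates, so such a list is not fully free of the replicate left out.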

Additional observations from a re-analysis of the deposited data

How the results depend on the processing

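No paired analysis was possible because there is a single group of samples. The number of upstream promoter peaks was 896 to 924 without each replicate in turn, 680 with an outer bound of 300 bp, 793 with the inner bound moved beyond 100 bp, 847 with protein-coding start sites only and 1191 with bidirectional promoters kept. It was 520 in the 2093 peaks of highest signal, a list with fewer peaks. The rank difference from core promoter peaks was -761 to -503.5 without each replicate in turn. It was 292 with the opposite direction in the ranks of replicate 1 (permutation test), -159 (adjusted p = 0.522) by the mean rank of replicates 1 and 3, and -427.5 (adjusted p = 0.272) among peaks of 55 to 65% A+T; the cause was not tested.

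The 2 differences in A+T content kept their direction and passed under every alternative run, at 6.10 to 9.84 points for summit against flank and 8.02 to 12.1 points against core promoter peaks. The difference in replicate reproducibility did not pass under any alternative run, and was 0.62 points with more top calls. The number of motifs that differed from the flank was 8 to 12 without each replicate in turn. It was 4 with the flank away from the gene only, 4 in the 2093 peaks of highest signal and 2 within 50 bp of the summit. Against core promoter peaks the number was 8 to 12 without each replicate in turn and 4 in the 2093 peaks of highest signal. Within 50 bp of the summit it was 9. The 2093 peaks hold fewer members, and the cause of the other changes was not tested. For annotation, 3 to 4 of 5 classes differed without each replicate in turn. Among start sites inside a gene 2 differed. In protein-coding genes of 5000 to 20000 bp 0 did, and 0 had an unadjusted p under 0.05 by Fisher's exact test. Under both restrictions intergenic sequence and introns of another gene held 0 positions of either group, so these classes could not differ. Introns and exons of the same gene then hold nearly all positions, so their results are not separate. Exons of the same gene were 5.85 points less frequent (difference -5.85) under members among start sites inside a gene. With no read counts, depth sets a limit that the files do not show.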
